A study of Homo sapiens with 4 samples.

Results

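The integrin subunits described here are 10 genes, the alpha subunits ITGA2, ITGA3, ITGA5, ITGA6 and ITGAV and the beta subunits ITGB1, ITGB4, ITGB5, ITGB6 and ITGB8, out of 50626 genes in the expression table. They were chosen by name as integrin subunits of epithelial cells, with earlier results of these data known. All 10 were among the 14321 genes with a mean of at least 1 FPKM over the 4 libraries. The unit, FPKM, scales a gene's fragments by transcript length and by library total. The question was whether ITGA3 was higher alone after knockdown of QPRT, the enzyme that turns quinolinic acid into a precursor of NAD.

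The sequenced cells were BT-20 and MDA-MB-468, which are established cell lines of human triple-negative breast cancer, and the labels call the latter MB-468. Each line carried either a control shRNA or a QPRT shRNA, which gave 4 groups of 1 library each: BT-20 control shRNA, BT-20 QPRT shRNA, MDA-MB-468 control shRNA and MDA-MB-468 QPRT shRNA. All cells, the controls included, were transduced with a lentiviral hairpin vector and selected with puromycin, and 1 hairpin against QPRT was sequenced in each line. With 1 library per group, a difference within a line has no replicate check, and the intervals given below cover counting error only.

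Integrins are cell surface receptors made of an alpha and a beta subunit, and the combination sets which matrix protein is bound. ITGB1 pairs with ITGA2 to bind collagen, with ITGA3 or ITGA6 to bind laminins, and with ITGA5 to bind fibronectin. ITGB4 pairs with ITGA6 in the hemidesmosome, while ITGAV pairs with ITGB5, ITGB6 or ITGB8 to bind vitronectin, fibronectin or latent TGF-beta.

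The libraries held between 10321996 and 10945948 fragments. QPRT itself was at 249 FPKM in BT-20 control against 40.5 in BT-20 QPRT, and at 117 FPKM in MDA-MB-468 control against 18.3 in MDA-MB-468 QPRT, log2 differences of -2.59 and -2.62. The 4 epithelial markers summed to between 2402 and 6024 FPKM, and PTPRC, the leukocyte marker, was at or under 0.34 FPKM. The 3 basal markers summed to 296 and 268 FPKM in BT-20 control and QPRT and to 649 and 1027 in MDA-MB-468 control and QPRT. The 3 fibroblast markers were lower with QPRT shRNA in both lines, their sum going from 32.8 to 21.6 FPKM for BT-20 and from 18.5 to 15.1 FPKM for MDA-MB-468. That sum was nearly all COL1A1, at 32.0 and 21.1 FPKM in BT-20 control and QPRT and 17.5 and 14.7 in MDA-MB-468. The other 2 fibroblast markers were under 1 FPKM in every library and rested on few fragments. The 13 markers of gut epithelium or plasma cells summed to 96.4 FPKM in BT-20 control, 36.2 in BT-20 QPRT, 230.0 in MDA-MB-468 control and 47.5 in MDA-MB-468 QPRT, and 13 of 13 were lower with QPRT shRNA in both lines. For OLFM4 in MDA-MB-468 the difference was small, at 9.71 and 8.96 FPKM in control and QPRT. The part of these marker shifts in the differences below was not tested. In bulk RNA, fewer expressing cells and less RNA per cell cannot be told apart. Where the gut and plasma cell transcripts came from was not tested either, and bulk RNA does not show whether cells of the cultures made them.

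The promoters of the members that passed the 1.5-fold threshold in either line are shown for reference, from 250 bases before to 50 after the start in RefSeq (GRCh38.p14). Of the 4 such members, ITGA2, ITGAV and ITGB8 had an entry, at chr5:52989102-52989401, chr2:186589806-186590105 and chr7:20330650-20330949, each on the plus strand. ITGA3 had none. Capitals mark the GC box GGGCGG, searched on both strands, so that a match on the minus strand reads CCGCCC.
ITGA2: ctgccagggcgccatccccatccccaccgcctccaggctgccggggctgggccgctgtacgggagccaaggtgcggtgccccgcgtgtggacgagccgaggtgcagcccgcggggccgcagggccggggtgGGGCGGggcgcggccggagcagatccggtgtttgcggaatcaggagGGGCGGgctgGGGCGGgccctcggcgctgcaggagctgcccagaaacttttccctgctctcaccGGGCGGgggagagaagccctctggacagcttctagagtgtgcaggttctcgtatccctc
ITGAV: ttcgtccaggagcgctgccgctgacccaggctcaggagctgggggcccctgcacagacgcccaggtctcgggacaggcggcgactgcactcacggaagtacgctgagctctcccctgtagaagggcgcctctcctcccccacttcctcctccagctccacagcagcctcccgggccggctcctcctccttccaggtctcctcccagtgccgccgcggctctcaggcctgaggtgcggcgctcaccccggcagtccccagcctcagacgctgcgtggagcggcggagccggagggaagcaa
ITGB8: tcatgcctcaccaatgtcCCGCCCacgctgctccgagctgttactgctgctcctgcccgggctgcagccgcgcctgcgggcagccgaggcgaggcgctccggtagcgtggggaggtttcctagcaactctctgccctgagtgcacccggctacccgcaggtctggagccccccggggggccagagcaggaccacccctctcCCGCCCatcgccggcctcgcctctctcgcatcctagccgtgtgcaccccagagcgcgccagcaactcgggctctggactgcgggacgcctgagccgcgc
The GC box was found 4 times in ITGA2, 2 times in ITGB8 and not in the ITGAV window shown, and 45% of 35116 promoters held it. The AP-1 motif TGANTCA, held by 7.71% of promoters, and the letters TATAAA, held by 11.5%, were found in none of these 3 windows, which says only that these letters are not there.

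ITGA3 (ENSG00000005884, chromosome 17 from 50055968 to 50090481, plus strand, GRCh38), the laminin-binding partner of ITGB1, was the highest alpha subunit in 3 of the 4 libraries. Its level was 199 FPKM in BT-20 control, 363 in BT-20 QPRT, 91.8 in MDA-MB-468 control and 109.8 in MDA-MB-468 QPRT. Both BT-20 libraries lay above both MDA-MB-468 libraries, and the QPRT library was the higher within each line. The difference of log2(FPKM + 1) between QPRT and control shRNA was 0.86 in BT-20, with 0.26 in MDA-MB-468. These lay at the percentiles 98.3 and 78.5 of all genes tested. The 95% counting interval of the log2 ratio of FPKM ran from 0.81 to 0.93 for BT-20 and, for MDA-MB-468, from 0.16 to 0.35. ITGA3 is among the genes that the study selected for display from these same samples, so its direction is not independent evidence.

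ITGA2 (ENSG00000164171, chromosome 5 from 52989326 to 53094779, plus strand), the collagen-binding alpha subunit, had a larger fold difference in BT-20 than ITGA3 did. It was at 2.91 FPKM in BT-20 control, 11.3 in BT-20 QPRT, 4.12 in MDA-MB-468 control and 3.28 in MDA-MB-468 QPRT. BT-20 QPRT stood above the other 3 libraries, which lay close together. The log2(FPKM + 1) difference was 1.65 in BT-20, with -0.26 in MDA-MB-468, and the former lay at the percentile 99.8 of all genes. In fragments, 133 in BT-20 control stood against 531 in BT-20 QPRT, a ratio of 3.89 with a 95% interval from 3.21 to 4.74.

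ITGAV (ENSG00000138448, chromosome 2 from 186590065 to 186680901, plus strand), the alpha subunit shared by the vitronectin and TGF-beta binding receptors, moved in opposite directions in the lines. Its FPKM was 57.6 in BT-20 control, 79.8 in BT-20 QPRT, 102 in MDA-MB-468 control and 64.6 in MDA-MB-468 QPRT. The highest library was therefore MDA-MB-468 control, and with QPRT shRNA ITGAV was lower in MDA-MB-468 than in BT-20. The log2(FPKM + 1) difference after knockdown was 0.46 in BT-20, with -0.65 in MDA-MB-468, the latter at the percentile 2.91 of all genes.

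ITGA6 (ENSG00000091409, chromosome 2 from 172427354 to 172506282, plus strand), the alpha subunit of the hemidesmosome, and ITGA5 (ENSG00000161638, chromosome 12 from 54395261 to 54419460, minus strand), that of the fibronectin receptor, differed less. ITGA6 was at 23.9 and 28.8 FPKM in BT-20 control and QPRT and at 44.9 and 36.9 FPKM in MDA-MB-468 control and QPRT, log2(FPKM + 1) differences of 0.26 and -0.28. ITGA5 was at 18.9 and 23.8 FPKM in BT-20 and at 3.27 and 3.46 FPKM in MDA-MB-468, differences of 0.32 and 0.07. ITGA5 in MDA-MB-468 rested on 48 fragments with control shRNA, and its counting interval of the log2 ratio, from -0.52 to 0.69, held 0.

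Among the beta subunits, ITGB1 (ENSG00000150093, chromosome 10 from 32900319 to 33005792, minus strand), the common partner of the laminin, collagen and fibronectin receptors, had the largest difference in FPKM of any member in BT-20. It was at 617 FPKM in BT-20 control, 864 in BT-20 QPRT and 246 and 245 in MDA-MB-468 control and QPRT. The gain of 247 FPKM in BT-20 stood beside 164 for ITGA3, while the MDA-MB-468 libraries were level. The log2(FPKM + 1) difference was 0.48 in BT-20, and the MDA-MB-468 log2 ratio had a counting interval from -0.08 to 0.07.

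ITGB5 (ENSG00000082781, chromosome 3 from 124761948 to 124901418, minus strand), a vitronectin-binding partner of ITGAV, was the sole member that was lower with QPRT shRNA in BT-20. It was at 614 and 493 FPKM in BT-20 control and QPRT and at 209.7 and 246 FPKM in MDA-MB-468 control and QPRT, differences of -0.32 and 0.23 on the log2(FPKM + 1) scale. ITGB6 (ENSG00000115221, chromosome 2 from 160099666 to 160200313, minus strand), which with ITGAV binds latent TGF-beta, was at 66.9 and 94.1 FPKM in BT-20 and at 32.6 and 34.6 FPKM in MDA-MB-468, differences of 0.49 and 0.08. Its fragments, recovered from FPKM and length, were not whole numbers, so its counting intervals are approximate.

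ITGB4 (ENSG00000132470, chromosome 17 from 75721328 to 75757818, plus strand), the beta subunit of the hemidesmosome, was higher with QPRT shRNA in both lines. It was at 62.9 and 76.6 FPKM in BT-20 control and QPRT and at 54.3 and 71.6 FPKM in MDA-MB-468 control and QPRT, log2(FPKM + 1) differences of 0.28 and 0.39. GALK1 overlaps it on the opposite strand over 6225 bases and was at 25.2 to 30.7 FPKM, and whether counting used strand is not given in the sources used here.

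ITGB8 (ENSG00000105855, chromosome 7 from 20330702 to 20415754, plus strand), which with ITGAV binds latent TGF-beta, was the lowest member in BT-20. It was at 0.721 FPKM in BT-20 control, 1.73 in BT-20 QPRT, 10.1 in MDA-MB-468 control and 16.02 in MDA-MB-468 QPRT. These values came from 32, 79, 460 and 691 fragments. The QPRT library was the higher in each line, with log2(FPKM + 1) differences of 0.67 and 0.62. The ratio of FPKM was 2.40 in BT-20, with an interval from 1.58 to 3.75, and 1.59 in MDA-MB-468, with an interval from 1.41 to 1.80. In the BT-20 QPRT library, 5 genes that MDA-MB-468 expressed highly and BT-20 control hardly at all were compared with MDA-MB-468. These 5 were at 50 FPKM or more in both MDA-MB-468 libraries and under 0.05 FPKM in BT-20 control. Their level was, in the median, 0.636% of that in MDA-MB-468, with a range from 0.43% to 0.86%. CCN2, outside these limits at 43.5 and 67.7 FPKM in MDA-MB-468 control and QPRT, was at 0.0392 FPKM in BT-20 QPRT. The median share of the mean MDA-MB-468 level of ITGB8 is 0.083 FPKM, beside a gain of ITGB8 of 1.01 FPKM in BT-20. The part of such a low level in the ITGB8 difference was not tested. AC004130.1, an antisense gene within ITGB8, was at 4.03 and 5.66 FPKM in MDA-MB-468 control and QPRT.

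**Figure D1:**
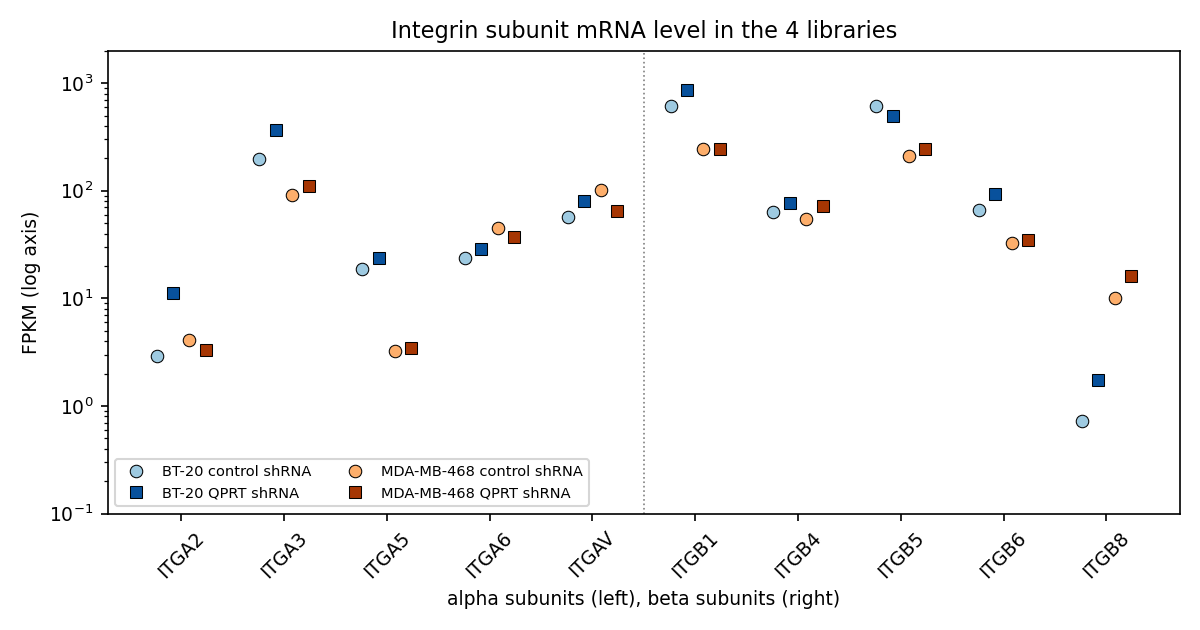
FPKM of each integrin subunit (log axis) in the 4 libraries, 1 point per library, with circles for control shRNA and squares for QPRT shRNA. ITGB8 spans from 0.721 to 16.02 FPKM and is high in MDA-MB-468, while ITGA2 stands out in BT-20 QPRT at 11.3 FPKM.

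ITGA3 was thus not the only subunit at a higher level after knockdown. In BT-20, 9 of 10 members had a difference above 0, against 56.4% of all genes tested, and 3 of 10, ITGA2, ITGA3 and ITGB8, were higher by 1.5-fold or more, against 5.7% of all genes. No member was lower by 1.5-fold, against 3.27% of all genes. Of the 4 other integrin subunits that passed the same filter, 0 had a difference above 0 in BT-20. The median difference was 0.47 over the members and 0.05 over all genes. In MDA-MB-468, 6 of 10 were above 0, against 51.5% of all genes. ITGB8 alone was higher by 1.5-fold or more, against 5.46% of all genes, and ITGAV alone was lower, against 3.71%. The medians there were 0.07 and 0.01.

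Across both lines, 5 of 10 members, ITGA3, ITGA5, ITGB4, ITGB6 and ITGB8, had differences above 0 in each, against 26.2% of all genes. ITGB8 was higher by 1.5-fold or more in both, as were 0.426% of all genes. In BT-20, the counting interval of ITGA3 lay below that of 1 member, ITGA2, overlapped that of ITGB8 and lay above those of the other 7. In MDA-MB-468 it lay below that of ITGB8, above those of 4 members and overlapped those of ITGA5, ITGB4, ITGB5 and ITGB6. The order of ITGA3 among these neighbours was therefore not resolved beyond counting error in MDA-MB-468.

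**Figure D2:**
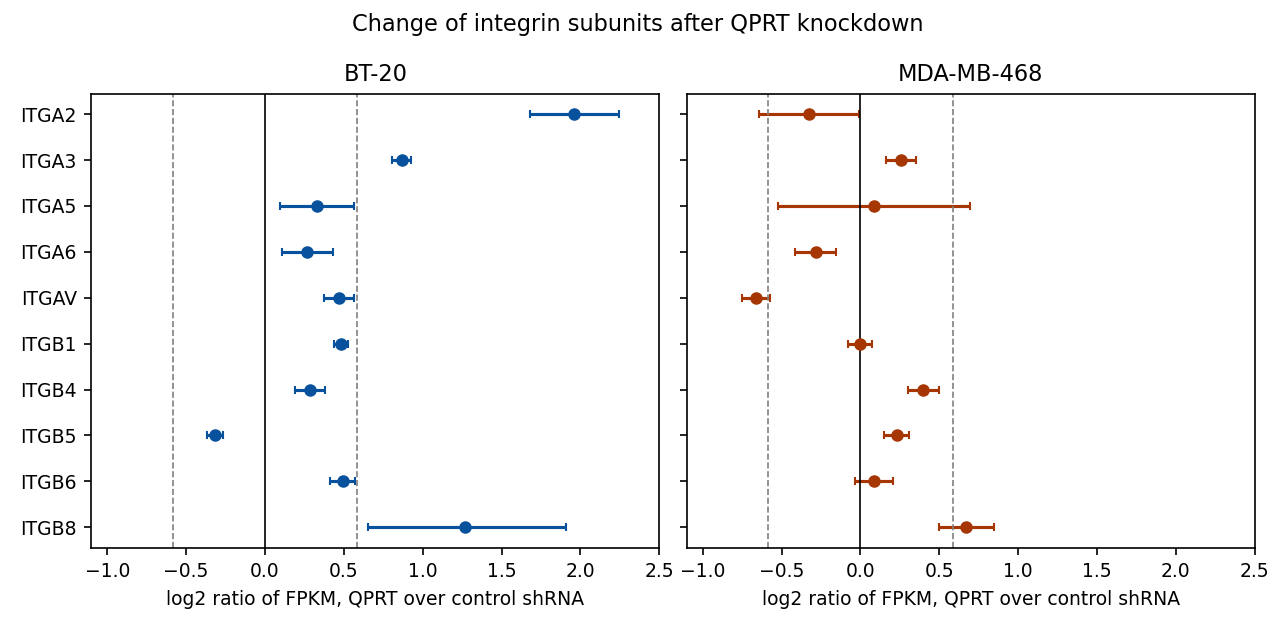
Log2 ratio of FPKM of QPRT over control shRNA for each integrin subunit in BT-20 (left) and MDA-MB-468 (right), with points for the ratio, bars for the exact 95% counting interval and dashed lines at 1.5-fold. ITGA2, ITGA3 and ITGB8 lie to the right of the upper line in BT-20, while in MDA-MB-468 ITGB8 lies to its right and ITGAV to the left of the lower line.

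Over both lines, limma, blocked on cell line, called 90 of 14321 genes for the knockdown, 0.628%, at an adjusted p under 0.05, and called 0 of 10 members. At an unadjusted limma p under 0.05, 3 of 10 members passed, as did 687 of the 14321 genes, a share of all genes close to the threshold itself. ITGA3 had a mean log2(FPKM + 1) difference of 0.56 (SE 0.19, limma adjusted p = 0.322), higher in 2 of 2 lines. ITGA2 had 0.70 (SE 0.28, limma adjusted p = 0.569), higher in 1 of 2 lines, and ITGB8 had 0.64 (SE 0.28, limma adjusted p = 0.769), higher in 2 of 2. The fit leaves 1 residual degree of freedom per gene, and its SE and p-values rest on a spread shared across genes. The SE is therefore not the spread of that gene between the lines, which for ITGA2 differed in sign.

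GC content moved with the knockdown difference in opposite directions in the lines. Across 14232 genes, which are not independent replicates, Spearman's rho of the difference with GC content was -0.28 in BT-20, with 0.29 in MDA-MB-468. Of the members, 6 had a GC content between 39.0% and 43.2% and 4 between 54.6% and 62.9%. The median difference of the former was 0.49 in BT-20, with -0.13 in MDA-MB-468, and that of the latter was 0.30 and 0.24. With the trend on GC content and length removed, ITGA3 was at 0.94 and 0.17 and ITGA2 at 1.44 and -0.12, while ITGB8 at 0.44 in BT-20 and ITGAV at -0.49 in MDA-MB-468 were no longer past 1.5-fold.

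**Figure D3:**
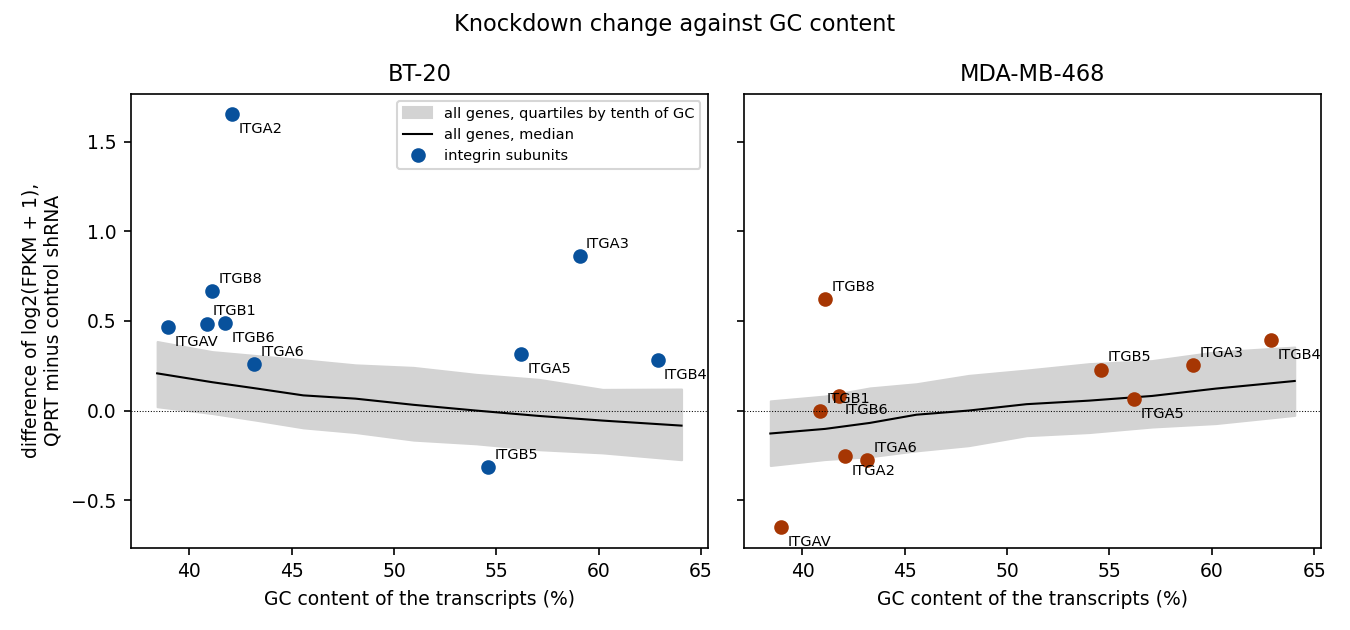
Difference of log2(FPKM + 1), QPRT minus control shRNA, against GC content of the transcripts (%) in BT-20 (left) and MDA-MB-468 (right); points are integrin subunits, and the line and grey band are the median and quartiles of all genes in bins of GC content. The line falls with GC content in BT-20 and climbs in MDA-MB-468. In BT-20 most members lie above the band, among them ITGA3 at 0.86 and ITGA2 at 1.65, while ITGA6 lies within it and ITGB5 below it.

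The make-up of the subunit pool was compared next, since alpha and beta subunits pair. The summed FPKM of the alpha members was 303 in BT-20 control, 507 in BT-20 QPRT, 246 in MDA-MB-468 control and 218 in MDA-MB-468 QPRT. That of the beta members was 1362, 1529, 552 and 614 FPKM in the same order. The alpha sum was thus higher with QPRT shRNA in BT-20 and lower in MDA-MB-468, whereas the beta sum was higher in both.

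ITGA3 took a larger share of the alpha sum with QPRT shRNA in each line. Its share was 65.9% in BT-20 control and 71.6% in BT-20 QPRT, and 37.3% and 50.4% in MDA-MB-468 control and QPRT. ITGAV took 41.4% and 29.6% in MDA-MB-468 control and QPRT, so that ITGAV ranked highest there with control shRNA and ITGA3 with QPRT shRNA. FPKM here divides by the mean length of all transcripts of a gene, 1061.7 bases for ITGB1 against 3784 for its longest coding transcript, which shifts levels compared between genes. With the longest coding transcript, a choice made after seeing the data, ITGA3 was at 35.4% and 48.1% in MDA-MB-468 control and QPRT, and the change of rank remained. Over all 18 alpha subunits listed, ITGA3 held a smaller share by FPKM, 57.0% and 66.3% in BT-20 control and QPRT. In MDA-MB-468 control and QPRT it held 33.1% and 43.8%, with ITGAV at 36.8% and 25.7%, so the change of rank remained there too.

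Of the beta sum, ITGB1 took 45.3% and 56.5% in BT-20 control and QPRT and 44.5% and 40.0% in MDA-MB-468 control and QPRT. ITGB5 took 45.1% and 32.2% in BT-20, with 38.0% and 40.1% in MDA-MB-468. The shares of ITGB1 and ITGB5 lay closest in BT-20 control and MDA-MB-468 QPRT and furthest apart in BT-20 QPRT. The ratio of ITGA3 to its partner ITGB1 was 0.323 and 0.42 in BT-20 control and QPRT and 0.374 and 0.448 in MDA-MB-468 control and QPRT, higher with QPRT shRNA in each line. The ratio of ITGAV to ITGB5 was 0.0938 and 0.162 in the BT-20 libraries, while MDA-MB-468 had 0.486 and 0.263 with control and QPRT shRNA.

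**Figure D4:**
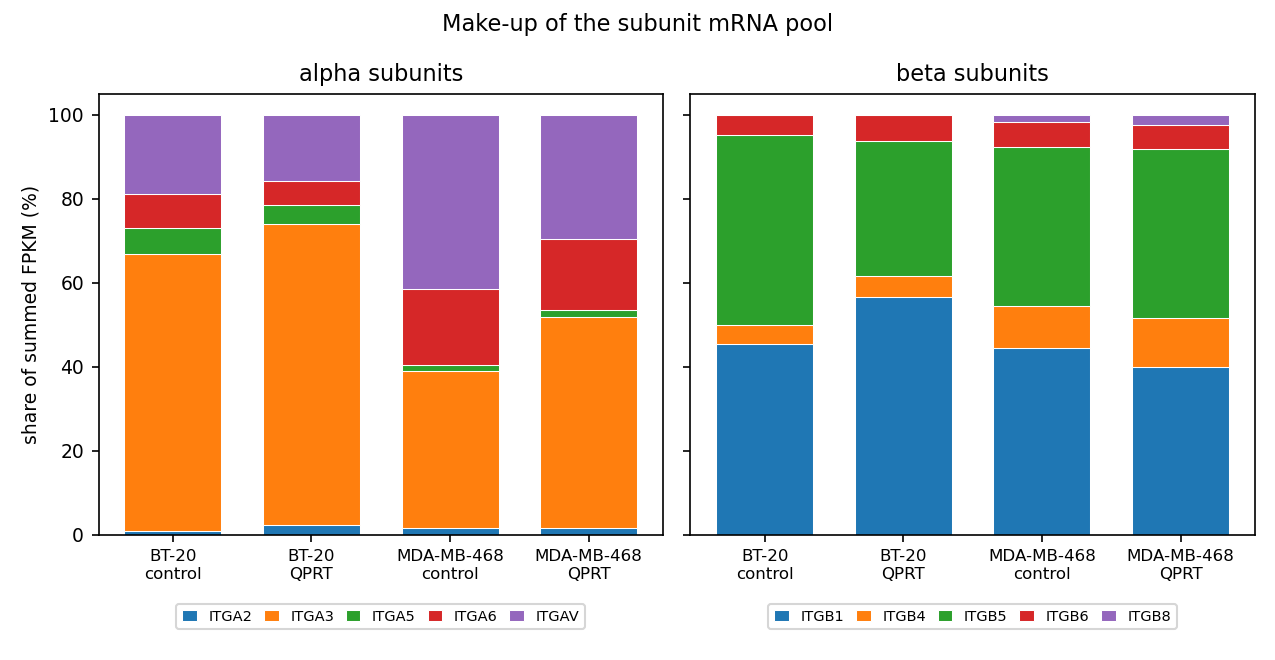
Share of each subunit (%) in the summed FPKM of the 5 alpha members (left) and the 5 beta members (right), as stacked bars for the 4 libraries. ITGA3 grows from 37.3% to 50.4% of the alpha sum in MDA-MB-468, where ITGAV shrinks from 41.4% to 29.6%.

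Between the lines, most members were lower in MDA-MB-468. With control shRNA, 5 of 10 were lower by 2-fold or more, ITGA3, ITGA5, ITGB1, ITGB5 and ITGB6, against 13.2% of all genes, and ITGB8 was higher, against 18.3%. With QPRT shRNA, ITGA2, ITGA3, ITGA5, ITGB1 and ITGB6 were lower, against 13.9% of all genes, and ITGB8 was higher, against 17.4%. The same log2(FPKM + 1) difference, MDA-MB-468 minus BT-20, was -1.11 for ITGA3 with control shRNA and -1.72 with QPRT shRNA. ITGB8 was at 2.68 and 2.64, and ITGA5 at -2.22 and -2.48. ITGB6 at -1.01 with control shRNA and ITGB5 at -0.999 with QPRT shRNA lay beside the threshold, the former just past it and the latter just short.

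The sign of the line difference depended on the shRNA for ITGA2, at 0.39 with control and -1.52 with QPRT shRNA, and for ITGAV, at 0.81 and -0.30. Over both shRNAs, limma called 7893 of 14321 genes between the lines, 55.1%, and 7 of 10 members, of which ITGA6 and ITGB8 were higher in MDA-MB-468 and ITGA3, ITGA5, ITGB1, ITGB5 and ITGB6 lower. ITGA3 had a difference of -1.41 (SE 0.19, limma adjusted p = 3.38e-12) and ITGB8 one of 2.66 (SE 0.28, limma adjusted p = 1.35e-20). The libraries of a line are not separate lines, so these p-values describe these libraries, and the SE again rests on the spread shared across genes.

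**Figure D5:**
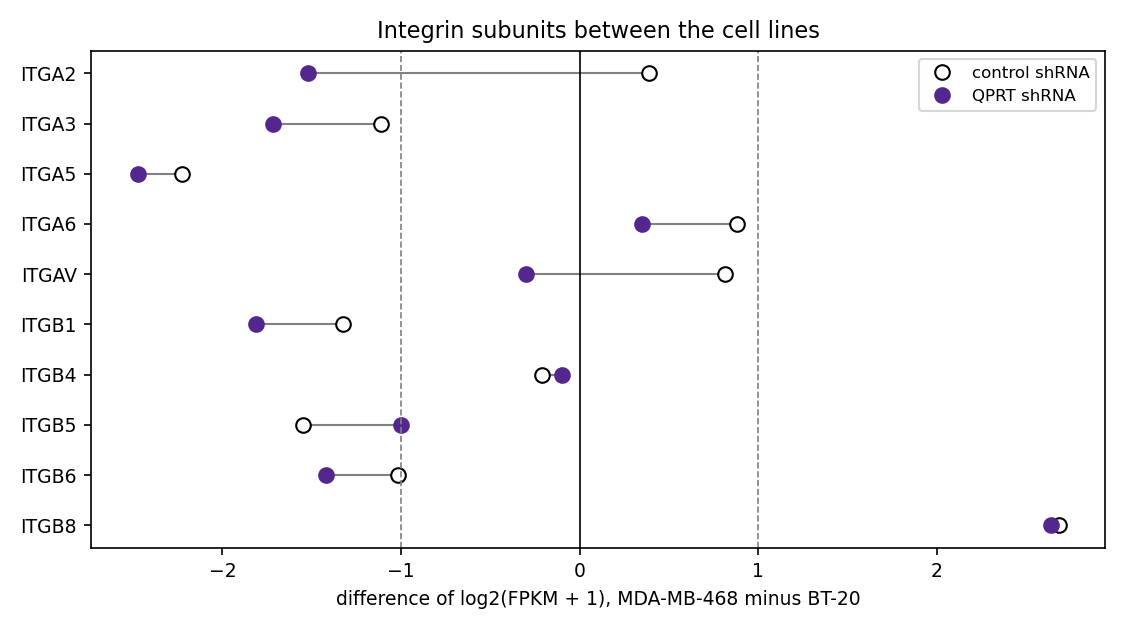
Difference of log2(FPKM + 1), MDA-MB-468 minus BT-20, for each integrin subunit with control shRNA (open) and QPRT shRNA (filled), with dashed lines at 2-fold. ITGA2 and ITGAV cross 0 between the shRNAs, and ITGB8 is the one subunit to the right of the upper line.

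Of the 16 other integrin subunit genes listed, 4 passed the filter, ITGAE, ITGAL, ITGB2 and ITGB7, and the 10 members held between 95% and 97.8% of the FPKM of all 26. Among the alpha subunits alone the part outside the members was larger. ITGAE held 12.9% and 7.12% of the FPKM of all alpha subunits in BT-20 control and QPRT, and 8.28% and 9.70% in MDA-MB-468 control and QPRT. ITGAE, the partner of ITGB7 in the E-cadherin receptor, was at 45.04 and 38.99 FPKM in BT-20 control and QPRT and at 23.0 and 24.3 in MDA-MB-468. ITGAL was at 0.0857 and 0 FPKM in BT-20 and at 3.33 and 2.03 in MDA-MB-468. In BT-20, 4 of 4 had a difference below 0, with a median of -0.15, unlike most of the members. ITGAL there rested on 1 and 0 fragments and ITGB7 on 8 and 8. In MDA-MB-468, 2 of 4 were above 0, with a median of -0.02. On the log2(FPKM + 1) scale none of these 4 passed 1.5-fold in either line, but ITGAL in MDA-MB-468, at -0.51 from 40 and 23 fragments, passed it at -0.60 with the GC content and length trend removed.

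Genes that act with integrins were counted by the same 1.5-fold threshold, which 5.7% of all genes passed upward and 3.27% downward in BT-20 (in MDA-MB-468, 5.46% and 3.71%). Of 20 adhesion adaptors tested, 1 was higher in BT-20, TNS4 at 0.64, and 1 in MDA-MB-468, BCAR1 at 0.71, with medians of 0.09 and -0.12. Of 7 activators and inhibitors, 1 was lower in BT-20, FERMT2, a kindlin, at -0.65, and 0 in MDA-MB-468. Of 3 hemidesmosome partners and of 6 tetraspanins, which sit beside integrins in the membrane, 0 passed in either line. DST was at 0.31 and -0.18, PLEC at 0.18 and -0.08 and CD151, the tetraspanin that binds ITGA3, at 0.08 and 0.17.

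Of 20 matrix ligands tested, 1 was higher and 1 lower in BT-20, and 5 were higher and 1 lower in MDA-MB-468, beside the same shares of all genes. LAMB3, a chain of the laminin that ITGA3 and ITGA6 bind, was at 45.8 and 64.1 FPKM in BT-20 control and QPRT and at 5.16 and 10.1 in MDA-MB-468, differences of 0.48 and 0.85. LAMA3, a chain of the same laminin chosen after its values were seen, was the ligand higher in BT-20, at 2.20 and 7.29 FPKM. TGFB1, whose latent form ITGAV receptors bind, was at 89.1 and 69.7 FPKM in BT-20 and at 20.3 and 46.7 in MDA-MB-468, differences of -0.35 and 1.16. The widest line difference among the list genes named was that of CCN2, a matricellular integrin ligand, at 0.0403 and 0.0392 FPKM in BT-20, 1 fragment each, with 43.5 and 67.7 in MDA-MB-468.

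By Euclidean distance between centred log2(FPKM + 1) profiles over the 4 libraries, the genes nearest to ITGA3 among 6262 at a mean of at least 20 FPKM were PMEPA1 at 0.217, CKMT1B at 0.259 and TBK1 at 0.288. CKMT1B has a close paralog, CKMT1A, that could share reads with it, so its value is uncertain. PMEPA1 was at 88.2 and 133 FPKM in BT-20 and at 37.6 and 47.9 in MDA-MB-468. The nearest members were ITGB6, at rank 10, and ITGB1, at rank 12.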

How the data were processed

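RNA libraries of 4 samples, 1 per cell line and shRNA, were made with a TruSeq kit and sequenced by the authors, who trimmed reads and deposited FPKM values per gene. The submitters' processing notes name CASAVA, FastQC, MultiQC, TopHat2 2.0.12 and HTSeq 0.6.1. The genome build, annotation and strand setting are not given in the sources used here. The paper's methods name DESeq2 for differential expression, which was not run here, since FPKM are not counts.

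The table held 50653 rows, and 27 rows that repeated a symbol were left out. Lengths, GC content and coordinates came from GENCODE 29 (GRCh38). FPKM times mean transcript length gave whole fragments within 0.02 for 87.3% to 87.6% of values above 0. Exact Clopper-Pearson 95% intervals of fragment ratios cover counting error only, since fragments that carry no molecular identifier may be copies of the same molecule.

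Differences were of log2(FPKM + 1), which understates the change of low genes, over the 14321 genes whose mean FPKM was at least 1, counted at 1.5-fold for knockdown and 2-fold for lines. limma 3.58.1 (R 4.3.3) was fitted with eBayes, a trend on mean expression and Benjamini-Hochberg adjustment over all genes. On simulated data false calls exceeded the nominal share, mostly among genes of few fragments, so limma calls are read as liberal. Unlike the real data, the simulation gave both lines the same change and held no GC trend. A spread trended on fragments, added after that test, is therefore given as an alternative. Other steps used Python 3.11.15 with statsmodels 0.14.6, scipy 1.17.1, pandas 2.3.3, numpy 2.4.6 and matplotlib 3.10.9.

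The members and gene lists were chosen with earlier results of these data known. Named genes were the members, other integrin subunits past the same filter, from each list the 2 largest by knockdown and the 2 largest by line difference at a mean FPKM of at least 5, QPRT, and the 3 genes nearest to ITGA3. The carry-over check, the partner ratios and the condition that counting intervals exclude 0 for opposite directions were set after the data were seen. Alternatives were a pseudocount of 0.1, upper quartile and TPM scaling, other filters and thresholds, removal of the lowess trend on GC content and length (fraction 0.3), and fits without block or trend.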

Additional observations from a re-analysis of the deposited data

Results flagged for a closer look

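The knockdown difference had opposite signs in the cell lines for 5 of 10 subunits, against 54.6% of all genes tested, a share near the background. For 4 of them the counting intervals also excluded 0 in each line, against 14.5% of 14232 genes, and these intervals narrow with the number of fragments. With 1 library per group the difference between the lines was not tested. ITGA2 was at 1.65 on the log2(FPKM + 1) scale in BT-20, with -0.26 in MDA-MB-468. ITGAV was at 0.46 in BT-20, with -0.65 in MDA-MB-468. ITGA6 was at 0.26 in BT-20, with -0.28 in MDA-MB-468. ITGB5 went the other way, at -0.32 in BT-20, with 0.23 in MDA-MB-468. GC content moved with the difference in opposite directions in the lines, and with the GC content and length trend removed the values for BT-20 and MDA-MB-468, in that order, were 1.44 and -0.12 for ITGA2, 0.24 and -0.49 for ITGAV, 0.11 and -0.18 for ITGA6, and -0.21 and 0.16 for ITGB5.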

How the results depend on the processing

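No member called at its fold threshold changed sign under any alternative run, and ITGA3 ranged from 0.84 to 0.94 for BT-20 and, for MDA-MB-468, from 0.17 to 0.26. At 2-fold, 1 member, ITGA2, was called in BT-20, where 1.70% of all genes passed, and 0 in MDA-MB-468, where 1.89% passed. With the GC content and length trend removed 1 member, ITGB8, was called in MDA-MB-468, where 8.39% of all genes passed 1.5-fold in either direction. ITGA5 and ITGB1, near 0 in MDA-MB-468, changed sign with the trend removed. limma called 90 genes for the knockdown, but 45 at a mean FPKM of at least 5, 1 with the trend removed (729 at an unadjusted p under 0.05), 0 with no filter (813) and 0 without the line block (17). With the spread trended on fragments, an alternative chosen after seeing the data, it called 67. No member was called for the knockdown in any of these fits. Between the lines limma called 7893 of 14321 genes, and 0 with no filter (7482 at an unadjusted p under 0.05). With the spread trended on fragments it called 7827 of 14232 genes, and 8 members in place of 7. The cause of these changes was not tested. Leaving out a library could not be fitted with the block, because no residual degree of freedom remains, and leaving out a line gives the other line's own values. The labels carry no replicate numbers, and the line block is what pairs the control and QPRT libraries. Depth limits ITGB8 in BT-20 and ITGA5 in MDA-MB-468 most, and no count bears on replicate error within a line.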
